A study of Mus musculus with 4 samples.

Results

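The respiratory chain of mitochondria is built from subunits that need many helper proteins, and the genes described here encode those helpers and the enzymes that make coenzyme Q. They were the rows of the deposited gene table that the authors had tested, that carried a single gene symbol, and whose symbol began with Coq, Coa or Cox1 and a digit, Uqcc, Atpaf or Sdhaf and a digit or Pet1 and 2 digits, or was Cox20, Sco1, Sco2, Surf1, Bcs1l, Ttc19 or Taco1. This gave 37 genes of the 12556 tested rows with 1 symbol. No row with 1 matching symbol was left untested by the authors. In 3 more tested rows a matching gene shared its value with a neighbour (Cox16 with Synj2bp, Sco2 with Tymp, Pet117 with Csrp2bp). Those genes are given at the end and are not counted among the 37.

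The data are RNA sequencing of gastrocnemius, the large calf muscle, of C57BL/6J mice at 8 weeks of age. The 2 groups were wild-type control mice (WT) and mice with a muscle-specific knock-out of Fundc1 (Fundc1-MKO, mKO below), with 2 libraries in each, called biological replicates in the labels. FUNDC1 is a mitophagy receptor of the outer mitochondrial membrane. The Cre driver, the deleted exon, the sex of the mice and any Cre or floxed allele of the controls are not stated in the labels. The deposited table holds 1 FPKM (fragments scaled to transcript length and library size) per gene and group, with the bounds of the authors' interval. The spread between animals and the depth of the libraries are therefore not known here. FPKM is scaled to length, so levels of different genes are compared on it. The words rise and fall are kept for genes whose q-value in the authors' deposited table was below 0.05.

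Coenzyme Q is a lipid that carries electrons in the inner mitochondrial membrane from complexes I and II to complex III. It is made in the mitochondrion by a set of COQ proteins that work together in a complex. Complex IV, cytochrome c oxidase, reduces oxygen. It needs copper and haem a, which dedicated proteins insert into its mitochondrially encoded core subunits COX1 and COX2. Complexes II, III and V have assembly factors of their own, which are not part of the finished complex. Skeletal muscle is rich in these complexes, and inherited loss of several of these helpers causes mitochondrial disease in humans.

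None of the 37 genes rose or fell in mKO muscle. Of all 14134 tested rows 3.17% passed q, 0.92% higher and 2.25% lower in mKO. Among the 12556 of these with 1 symbol, as all members have, 88 passed higher and 299 lower. The q-values of the 37 genes in the authors' deposited table ran from 0.153 for Coq4 to 0.998. FPKM was higher in mKO for 17 genes and lower for 20, and for 29 of the 37 the groups differed by at most 1.1-fold. Without adjustment, the authors' deposited table gives a p below 0.05 for 3 genes (8.11%), Coq4 and Coa4 at lower FPKM in mKO and Cox20 at higher FPKM. Of all tested rows 13.7% had such a p, 8.97% at lower and 4.68% at higher FPKM. Among the 12556 rows with 1 symbol, 1071 had such a p at lower and 474 at higher FPKM. Within the members' range of mean FPKM it was 544 and 291 of 8125 such rows. The test statistics of the authors' deposited table are small for their p: the 3 genes had absolute values of 1.04 to 1.29, and a normal distribution reaches p = 0.05 at 1.96. Read against that distribution, no member had a p below 0.05, and the smallest was 0.198. After adjustment, 0.198% of all tested rows passed that reading and no member did. At a q below 0.1 no member was called either, beside 4.92% of all rows. The authors' intervals of both groups overlapped in all 37 genes. They lay apart in 0.715% of all tested rows and in 63 of the 12556 rows with 1 symbol.

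Promoter sequences are shown for the 3 genes with an unadjusted p under 0.05 and for the genes with the highest and the lowest level, Uqcc2 and Sco1. Each runs from 250 bases before to 50 bases after the start of the gene in RefSeq, on GRCm38.p6, the assembly that mm10 names. Capitals mark matches on either strand to the letters CCGGAAG (a core bound by ETS factors such as GABPA), CGCANGCG (NRF1), AANATGG (YY1), AAGGTCA (ERR receptors) and TGACGTCA (CREB family). Coa4 lies at chr7:100536850-100537149 on the plus strand, Coq4 at chr2:29787243-29787542 on the plus strand and Cox20 at chr1:178318903-178319202 on the plus strand. Uqcc2 lies at chr17:27133842-27134141 on the minus strand and Sco1 at chr11:67052420-67052719 on the plus strand.
Coa4: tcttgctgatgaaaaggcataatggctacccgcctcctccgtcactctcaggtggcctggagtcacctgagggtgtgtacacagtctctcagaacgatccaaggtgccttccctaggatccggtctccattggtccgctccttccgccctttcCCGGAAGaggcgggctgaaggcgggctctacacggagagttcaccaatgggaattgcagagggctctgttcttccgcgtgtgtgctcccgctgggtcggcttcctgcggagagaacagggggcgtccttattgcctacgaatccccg
Coq4: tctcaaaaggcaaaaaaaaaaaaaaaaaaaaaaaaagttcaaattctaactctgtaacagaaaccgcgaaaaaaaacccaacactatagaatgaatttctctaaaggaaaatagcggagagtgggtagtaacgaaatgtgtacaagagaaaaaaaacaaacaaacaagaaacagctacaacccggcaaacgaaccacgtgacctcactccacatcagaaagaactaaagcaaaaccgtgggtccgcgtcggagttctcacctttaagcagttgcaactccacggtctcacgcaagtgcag
Cox20: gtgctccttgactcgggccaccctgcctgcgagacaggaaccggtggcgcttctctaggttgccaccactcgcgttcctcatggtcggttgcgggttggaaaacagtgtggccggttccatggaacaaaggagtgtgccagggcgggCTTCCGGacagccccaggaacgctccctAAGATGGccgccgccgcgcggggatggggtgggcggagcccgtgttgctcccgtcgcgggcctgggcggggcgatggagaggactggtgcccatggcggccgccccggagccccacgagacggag
Uqcc2: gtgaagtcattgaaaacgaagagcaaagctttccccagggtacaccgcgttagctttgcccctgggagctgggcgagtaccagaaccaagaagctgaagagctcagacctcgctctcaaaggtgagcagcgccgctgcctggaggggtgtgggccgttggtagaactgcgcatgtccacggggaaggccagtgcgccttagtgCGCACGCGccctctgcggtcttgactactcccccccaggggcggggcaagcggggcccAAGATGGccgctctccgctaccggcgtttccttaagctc
Sco1: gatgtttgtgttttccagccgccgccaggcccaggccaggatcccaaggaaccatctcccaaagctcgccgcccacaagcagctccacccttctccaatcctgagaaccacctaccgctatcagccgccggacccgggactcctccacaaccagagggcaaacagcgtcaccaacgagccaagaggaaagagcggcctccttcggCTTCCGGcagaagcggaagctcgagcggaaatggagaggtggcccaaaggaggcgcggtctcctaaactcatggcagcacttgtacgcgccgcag
The ETS letters stand in Coa4, Cox20 and Sco1, and the YY1 letters in Cox20 and Uqcc2. Uqcc2 also holds the NRF1 letters, and Coq4 holds none of these. The window of Coq4 is 39.7% G and C, against 59.7% to 69.3% in the other 4. The RefSeq start of Coq4 lies 770 bases upstream of the start of its deposited locus, while the starts of the other 4 coincide.

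RefSeq promoters were found for 33 of the 37 genes, and none was listed for Coq5, Cox18, Coa6 and Cox17. CCGGAAG was present in 13 of the 33 (39.4%), in 19.1% of the promoters of 9507 tested genes and in 9.93% of all 27025 genes with a promoter. The 13 were Bcs1l, Coa4, Coq6, Cox10, Cox14, Cox15, Cox20, Pet100, Sco1, Sdhaf1, Sdhaf2, Sdhaf3 and Surf1. The NRF1 letters were present in 7 (21.2%), Atpaf1, Coa5, Coq3, Sdhaf3, Sdhaf4, Ttc19 and Uqcc2, beside 18.9% of tested genes. The CREB letters were present in Coa7, Pet100 and Ttc19, or 9.09%, beside 3.56% of tested genes. The YY1 letters were found in 21.2% and the ERR letters in 6.06%, beside 17.5% and 4.02% of tested genes. Genes with the ETS letters include both Cox20, at higher FPKM in mKO, and Coa4, at lower FPKM. The median G and C content of the members' promoters was 59.7%, and that of tested genes was 60.7%. These are matches of letters and not measured binding. In 6 of the 37 genes (16.2%) another protein-coding gene started within 1000 bp upstream and pointed away, beside 10.0% of 11589 tested genes. Pairs whose 5' ends overlap were not counted in either share. The partners were Zfp142 for Bcs1l, Zswim7 for Ttc19, Stxbp4 for Cox11, Adprm for Sco1, Unc50 for Coa5 and Xab2 for Pet100.

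Levels differed far more between genes than between groups. They spanned 255-fold in WT and 269-fold in mKO, from Sco1 at 2.73 and 2.67 FPKM to Uqcc2 at 695 and 719 FPKM. The median of the 37 mean levels was 27.0 FPKM, above the 5.61 FPKM of all tested single-gene rows, and 35 of the 37 lay above that median. Only Sco1 and Coq4 lay below it. In 7 genes the mean was at least 100 FPKM, namely Uqcc2, Cox17, Cox14, Coq9, Cox20, Coq10a and Coa3. The order of levels within each role group below was the same in WT and mKO.

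**Figure D1:**
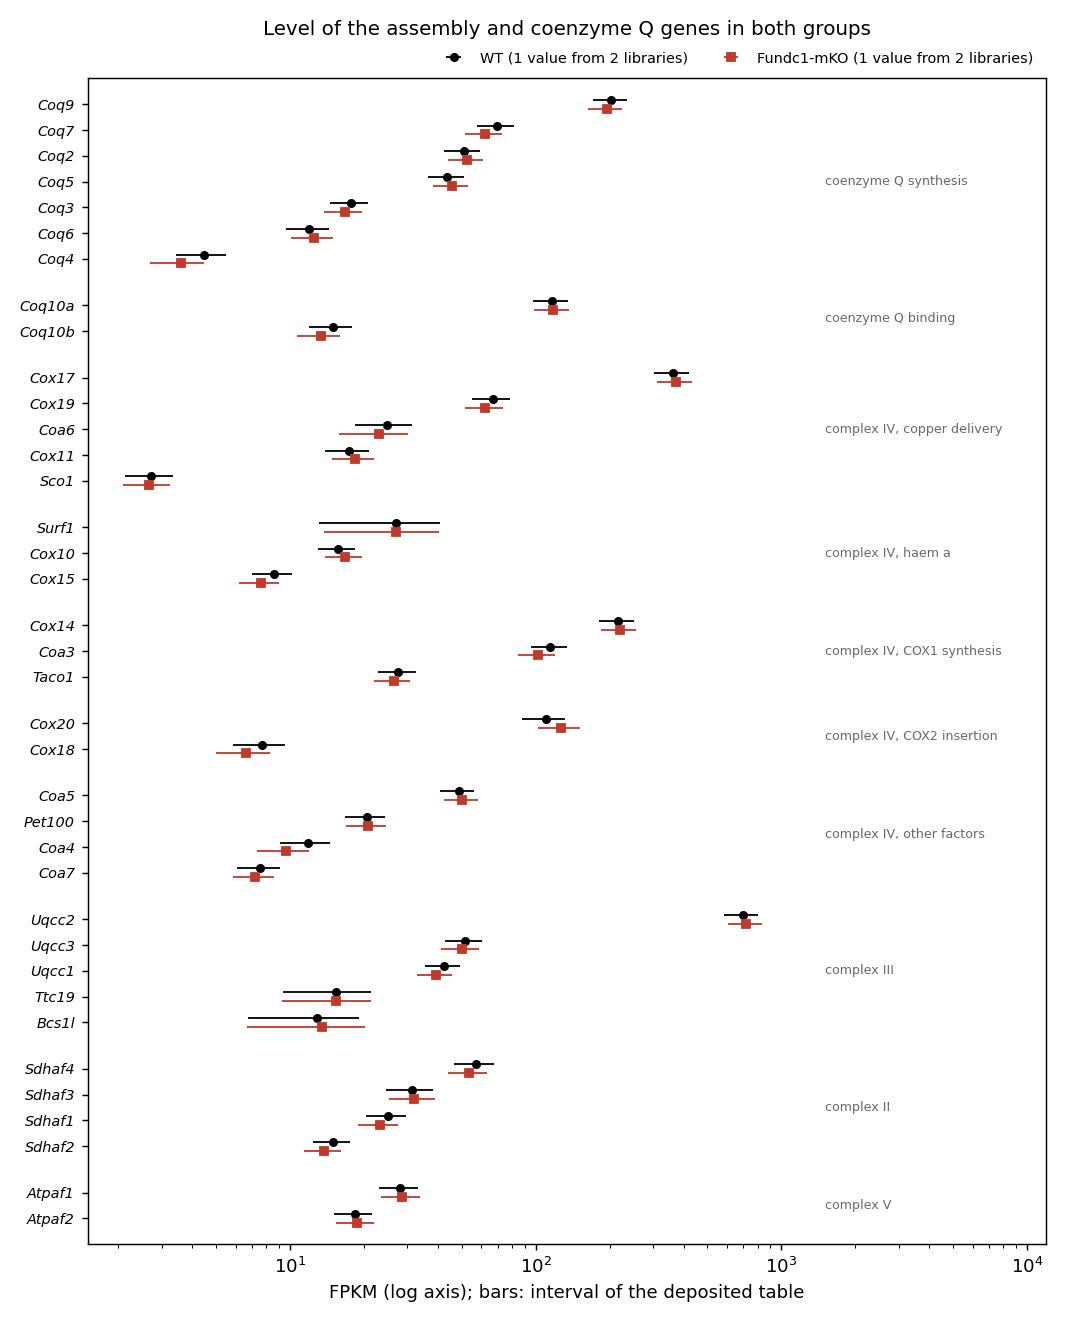
FPKM of the 37 genes on a log axis, grouped by role, in WT (black circles) and mKO (red squares), each 1 value made from 2 libraries. Bars are the intervals of the deposited table, and they overlap between the groups for all 37 genes.

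Genes of coenzyme Q synthesis spanned 45.5-fold in WT and 54.2-fold in mKO. Coq9 encodes a lipid-binding protein that works with the COQ7 hydroxylase, and it had the highest level of these, 203 FPKM in WT and 194 in mKO. Its intervals were 171 to 235 and 163 to 225, its log2 ratio of mKO over WT was -0.06 ± 0.16 (SE from the intervals), and q was 0.871 in the authors' deposited table. Coq9 alone made up 50.6% and 50.2% of the summed FPKM of the 7 synthesis genes. Coq7, the hydroxylase itself, had 69.8 FPKM in WT (interval 57.9 to 81.8) and 62.0 in mKO (interval 51.3 to 72.8). The log2 ratio was -0.17 ± 0.18, with p = 0.0510 and q = 0.370 in the authors' deposited table.

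Coq2 joins the isoprenoid tail to the ring of the molecule, and it had 50.9 FPKM in WT and 52.6 in mKO. Coq5, a C-methyltransferase of the ring, had 43.7 FPKM in WT (interval 36.5 to 50.8) and 45.6 in mKO (interval 38.2 to 53.1). Its log2 ratio of 0.06 ± 0.17 was among the 4 largest upward differences on log2(FPKM + 1), with q = 0.879 in the authors' deposited table. Neither gene differed by as much as its error. Coq3, an O-methyltransferase, had 17.7 FPKM in WT and 16.7 in mKO. Coq6, a flavin-dependent hydroxylase, had 12.0 FPKM in WT and 12.5 in mKO.

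Coq4 is needed for the stability and function of the synthesis complex, and it had the lowest level of the 7 and the largest log2 ratio of FPKM, in size, of all 37 genes. It had 4.46 FPKM in WT (interval 3.42 to 5.50) and 3.58 in mKO (interval 2.69 to 4.47), so the group values lie 1.25-fold apart and the intervals overlap. The log2 ratio was -0.32 ± 0.25, with p = 0.0102 and q = 0.153 in the authors' deposited table. Its locus also overlaps the coding gene Trub2, and the labels do not say whether strand was counted, without which reads from shared bases cannot be told apart. Coq10a and Coq10b encode proteins that bind coenzyme Q and are needed for its function in respiration, as known from yeast. Coq10a had 117 FPKM in WT and 118 in mKO, 7.83-fold and 8.84-fold the level of Coq10b. Its intervals were 97.7 to 135 and 98.5 to 137, and its log2 ratio was 0.01 ± 0.17 with q = 0.991 in the authors' deposited table. Coq10b had 14.9 FPKM in WT and 13.3 in mKO, with a log2 ratio of -0.16 ± 0.20. The intervals of the 2 paralogues lie apart in both groups.

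The coenzyme Q kinase-like proteins COQ8A and COQ8B appear in the table under their older symbols, and 1 of them fell by the authors' q. Adck4 (Coq8b) had 3.19 FPKM in WT (interval 2.39 to 3.99) and 2.35 in mKO (interval 1.71 to 2.98). Its log2 ratio was -0.44 ± 0.27, with p = 0.00080 and q = 0.0308 in the authors' deposited table, although the intervals overlap. Read against the normal distribution, its statistic gave an unadjusted p of 0.0946, so Adck4 was not called by that reading. Adck3 (Coq8a) stood far higher, at 252 FPKM in WT and 231 in mKO, with q = 0.568 in the authors' deposited table. Adck3 and Adck4 belong to a wider coenzyme Q list outside the rule, with precursor enzymes, coenzyme Q users and other related genes. Of its 16 genes 12 were tested in rows with 1 symbol, and among them only Adck4 passed q. Of these 12, 2 were at higher and 10 at lower FPKM in mKO, and 7193 of all 12556 tested single-gene rows were lower. The log2 ratios of FPKM + 1 had a median of -0.08 over the 12 and -0.02 over all those rows. Apart from Adck4, each of the 12 had a log2 ratio of FPKM smaller than its SE. Pdss1 and Pdss2, whose products make the isoprenoid tail, had 4.68 and 10.5 FPKM in WT and 4.30 and 10.3 in mKO. The mevalonate pathway supplies the tail's building blocks, and none of its 9 listed genes had even an unadjusted p below 0.05 by the authors' deposited table (median 0.01).

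Genes for copper delivery to complex IV spanned 132-fold in WT and 140-fold in mKO, the widest range of any role group. Cox17, the copper chaperone that hands the metal on, had 361 FPKM in WT (interval 302 to 421) and 373 in mKO (interval 312 to 434). The log2 ratio was 0.05 ± 0.17, with q = 0.937 in the authors' deposited table. Sco1 receives copper from COX17 and is needed for the copper site of COX2, and it was the weakest of the 37 genes at 2.73 FPKM in WT and 2.67 in mKO. Cox11, needed for the copper site of COX1, had 17.3 FPKM in WT (interval 13.8 to 20.9) and 18.4 in mKO (interval 14.7 to 22.1). The log2 ratio of Cox11 was 0.09 ± 0.20, with q = 0.861 in the authors' deposited table. Cox19, a partner of COX11, had 66.8 FPKM in WT and 62.4 in mKO. Coa6, which acts with the SCO proteins, had 24.9 FPKM in WT and 23.0 in mKO. By the authors' deposited table, no p of these 5 genes was below 0.05.

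Haem a is made from haem in 2 steps by the products of Cox10 and Cox15, and SURF1 acts in the same early stage of COX1 maturation. Cox10 had 15.7 FPKM in WT (interval 13.0 to 18.4) and 16.7 in mKO (interval 13.8 to 19.5), a log2 ratio of 0.09 ± 0.18 with q = 0.799 in the authors' deposited table. Cox15 had 8.62 FPKM in WT and 7.59 in mKO, a log2 ratio of -0.18 ± 0.19 with p = 0.0534 in the authors' deposited table. The enzymes of the 2 steps thus had differences of opposite sign, each smaller than its error. The deposited locus of Cox15 also overlaps the coding genes Cutc and Entpd7, so the limit on shared bases given for Coq4 holds here too. Surf1, whose human form is mutated in Leigh syndrome, had 27.0 FPKM in WT (interval 13.1 to 40.9) and 27.1 in mKO (interval 13.8 to 40.4). Its log2 ratio was 0.00 ± 0.51, with q = 0.998 in the authors' deposited table.

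Taco1, Coa3 and Cox14 act in the synthesis of COX1. Cox14 had 216 FPKM in WT (interval 181 to 251) and 221 in mKO (interval 185 to 257), with a log2 ratio of 0.03 ± 0.16 and q = 0.970 in the authors' deposited table. Coa3, which works with COX14 on newly made COX1, had 114 FPKM in WT and 102 in mKO. The log2 ratio of Coa3 was -0.16 ± 0.17, with p = 0.0548 in the authors' deposited table. Taco1, a translational activator of COX1, had 27.6 FPKM in WT and 26.4 in mKO.

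Cox18 and Cox20 serve COX2, and they differed in opposite directions. Cox20, a chaperone of newly made COX2, had 109.8 FPKM in WT (interval 88.0 to 132) and 127 in mKO (interval 102 to 152). This was the largest upward difference of the 37, a log2 ratio of 0.21 ± 0.20 with p = 0.0369 and q = 0.312 in the authors' deposited table. Its locus, at chr1:178319153-178322693 in mm10, overlaps the coding gene Hnrnpu, and as for Coq4 reads from shared bases cannot be told apart without strand. Cox18, which inserts the C-terminal part of COX2 into the membrane, had 7.71 FPKM in WT (interval 5.87 to 9.55) and 6.64 in mKO (interval 4.97 to 8.30). The log2 ratio of Cox18 was -0.22 ± 0.25, with p = 0.0838 and q = 0.469 in the authors' deposited table.

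Among the other complex IV factors, Coa4 had the largest downward difference, and of all 37 it was second to Coq4 on the log2 ratio of FPKM and ahead of it on log2(FPKM + 1), at -0.27 against -0.25. Coa4, an intermembrane space protein needed for complex IV, had 11.8 FPKM in WT (interval 9.10 to 14.5) and 9.64 in mKO (interval 7.33 to 12.0), a 1.23-fold difference. The log2 ratio was -0.29 ± 0.24, with p = 0.0137 and q = 0.180 in the authors' deposited table. Its locus lies at chr7:100537100-100539812 in mm10 and overlaps no other coding gene. Coa5 had 48.5 FPKM in WT (interval 40.7 to 56.3) and 50.2 in mKO (interval 42.1 to 58.2), with a log2 ratio of 0.05 ± 0.16 and q = 0.927 in the authors' deposited table. Coa7 had 7.57 FPKM in WT and 7.23 in mKO. Pet100, which helps assemble an intermediate of the enzyme, had 20.5 FPKM in WT and 20.7 in mKO. Over all 17 complex IV factors, 8 were at higher and 9 at lower FPKM in mKO.

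**Figure D2:**
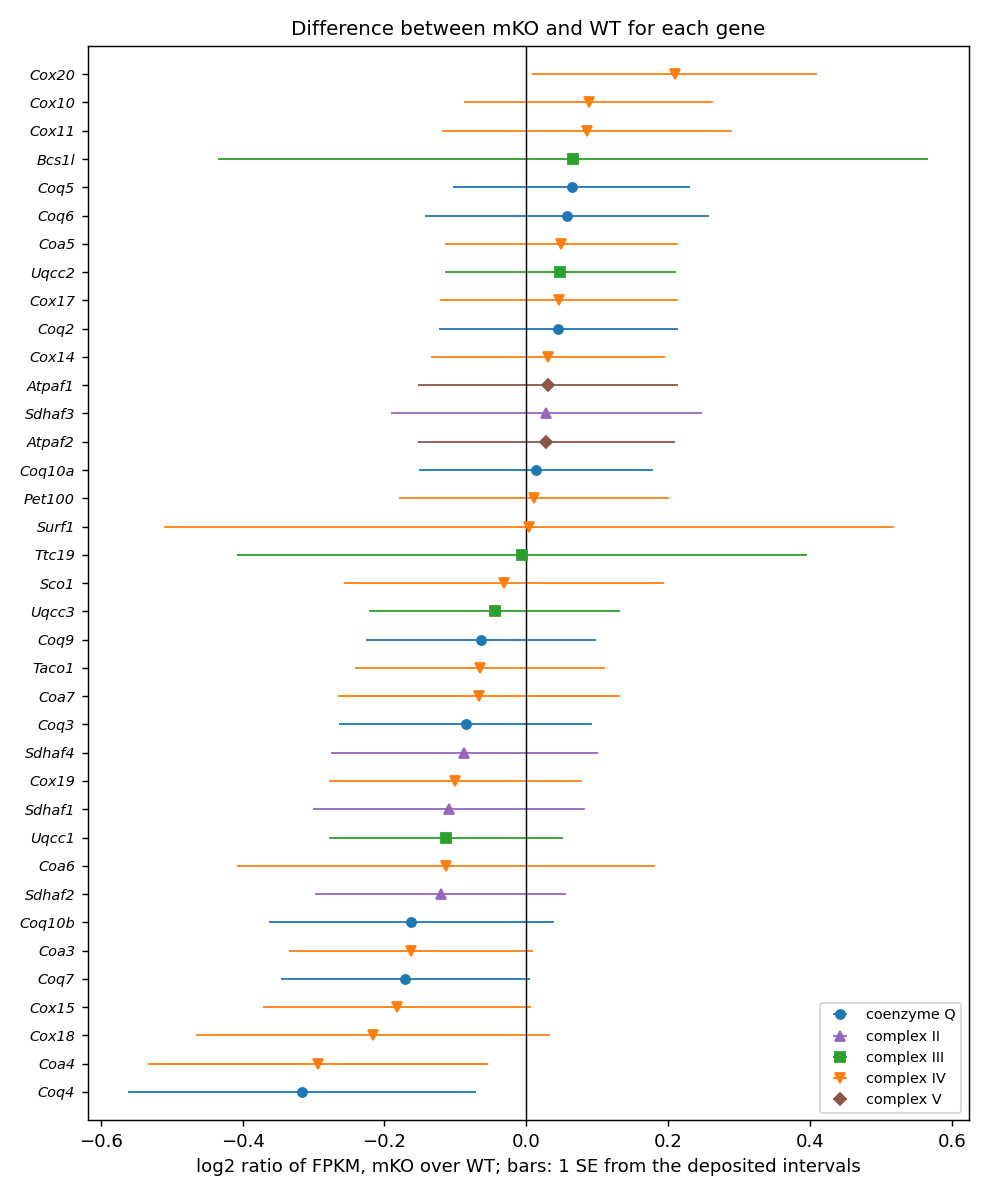
Log2 ratio of FPKM, mKO over WT, for the 37 genes ordered by size, with bars of 1 SE derived from the deposited intervals. The bars of 34 genes cross 0, and those of Coq4, Coa4 and Cox20 do not.

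Complex III factors were led by Uqcc2, which with UQCC1 takes part in the synthesis and stability of cytochrome b. Uqcc2 had 695 FPKM in WT (interval 584 to 806) and 719 in mKO (interval 604 to 833). The log2 ratio was 0.05 ± 0.16, with q = 0.928 in the authors' deposited table. It made up 85.1% and 85.9% of the summed FPKM of the 5 complex III genes, and 26.6% and 27.4% of that of all 37. Uqcc1 had 42.3 FPKM in WT and 39.1 in mKO. Uqcc3, needed for the assembly of the same subunit, had 51.6 FPKM in WT and 50.0 in mKO. Bcs1l, which moves the Rieske iron-sulfur protein into place, had 12.9 FPKM in WT and 13.5 in mKO. Ttc19, which clears fragments of that protein, had 15.4 FPKM in WT and 15.3 in mKO. By the authors' deposited table, no p of these 5 genes was below 0.05.

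The 4 complex II factors lay within a 3.82-fold range in WT and a 3.91-fold range in mKO. Sdhaf4, which binds the flavin subunit SDHA, was the highest at 57.1 FPKM in WT (interval 46.5 to 67.6) and 53.7 in mKO (interval 43.8 to 63.6). Its log2 ratio was -0.09 ± 0.19, with q = 0.825 in the authors' deposited table. Sdhaf3 and Sdhaf1, whose products serve the iron-sulfur subunit SDHB, had 31.4 and 25.0 FPKM in WT and 32.0 and 23.2 in mKO. Sdhaf2, needed to attach the flavin to SDHA, had 14.9 FPKM in WT and 13.7 in mKO. Of the 2 factors of ATP synthase, Atpaf1, a chaperone of the beta subunit, had 28.0 FPKM in WT (interval 22.9 to 33.0) and 28.6 in mKO (interval 23.5 to 33.7). The log2 ratio of Atpaf1 was 0.03 ± 0.18, with q = 0.973 in the authors' deposited table. Atpaf2, a chaperone of the alpha subunit, had 18.3 FPKM in WT and 18.7 in mKO.

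The values of 3 further genes could not be separated from those of a neighbour. The row of Cox16 and Synj2bp had 102 FPKM in WT and 101 in mKO. For Sco2, the paralogue of Sco1, the row shared with Tymp gave 11.5 FPKM in WT and 11.3 in mKO. Pet117 shared a row with Csrp2bp at 17.1 FPKM in WT and 16.2 in mKO. The lowest q of these 3 rows in the authors' deposited table was 0.975.

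The width of the authors' interval differed between loci. In WT the half-width was 15.9% to 26.2% of the FPKM in 34 of the genes. It was 51.6% for Surf1, 47.7% for Bcs1l and 39.1% for Ttc19. The deposited locus of Bcs1l spans 183060 bp and overlaps 5 other coding genes of GENCODE M21, that of Ttc19 spans 234563 bp and overlaps Ncor1 and Pigl, and that of Surf1 overlaps Surf2 and Surf4. The median half-width was 20.1% in the 12 genes whose locus overlaps further coding genes and 17.3% in the 25 others. Over tested single-gene rows with a mean of at least 1 FPKM the medians were 23.3% and 19.1%. Precision is thus lowest for Surf1, Bcs1l and Ttc19, with an SE of 0.40 to 0.51 on the log2 ratio against a median of 0.18 over the 37. Further coding genes also overlap the loci of Coq4, Cox20, Cox15, Cox11, Cox17, Coa6, Atpaf1, Sdhaf1 and Pet100. The limit on shared bases given for Coq4 holds for all loci with such an overlap.

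**Figure D3:**
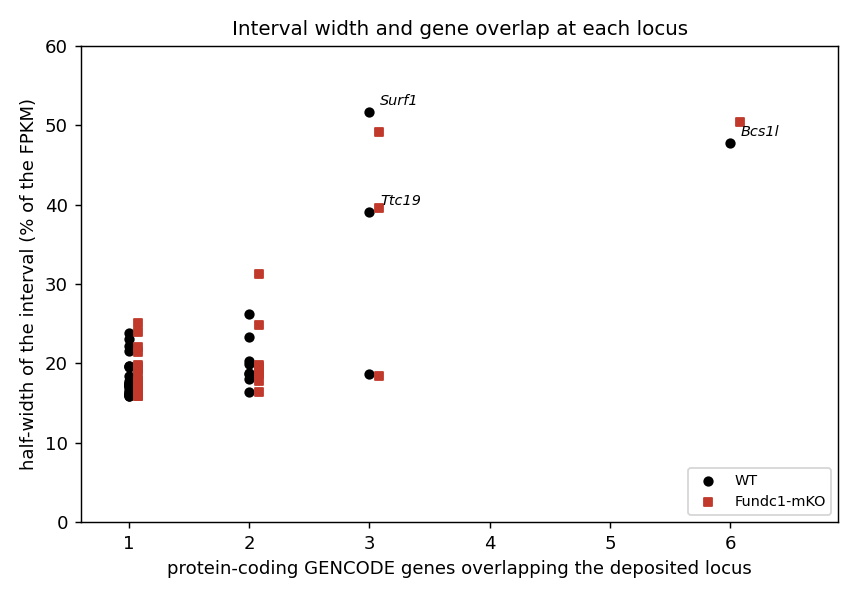
Half-width of the deposited interval as a percentage of the FPKM, in WT (black circles) and mKO (red squares, set slightly to the right), against the number of protein-coding GENCODE M21 genes that overlap the deposited locus of each of the 37 genes. Surf1, Bcs1l and Ttc19 have the widest WT intervals, at 51.6%, 47.7% and 39.1%.

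Set beside the nuclear subunit genes of the respiratory chain, the 37 genes had a median log2 ratio of FPKM + 1 of -0.02. That of all tested single-gene rows was also -0.02. The 81 measured nuclear subunit genes of complexes I to V had a median of 0.05. Of these, 34 belong to complex I, for which the 37 hold no assembly factor, and 9 of the 37 are coenzyme Q genes. The 81 are thus not only subunits that the 37 help to assemble. FPKM was higher in mKO for 67 of those 81 (82.7%), for 17 of the 37 (45.9%) and for 42.7% of all tested single-gene rows. The subunits also stood at a higher level, a median of 513 FPKM beside 27.0 for the 37 genes. No rows matched to the subunits' level were set beside them. No subunit passed q. Cox6c, Uqcr11 and Ndufa1, the only 3 of the 81 with an unadjusted p below 0.05 by the authors' deposited table, were at higher FPKM in mKO. Such a p was found in 13.7% of all tested rows. With both groups scaled to equal medians the subunits had a median of 0.08 and the 37 genes 0.00. These medians describe 1 value per group, and the difference between the lists was not tested. Of 13 complex I assembly factors 7 were at higher FPKM and none passed, with a median of 0.01, and of 13 further assembly genes of complexes II to V 9 were higher and none passed, with a median of 0.01. By the authors' deposited table, neither list held a gene with an unadjusted p below 0.05. Of 13 genes for translation and stability of mitochondrial transcripts none passed and Mterf1a, at 0.903 FPKM in WT and 0.636 in mKO, had a p of 0.0374 in the authors' deposited table (list median -0.02). In the copper and haem supply list Mt1 and Mt2, the metal-binding metallothioneins, fell and none of the other 18 genes passed (list median 0.01). By the normal reading with adjustment Mt1 passed and Mt2 did not, with adjusted p-values of 0.0126 and 0.0985. None of the 13 mitochondrially encoded subunits was found among the tested rows with 1 symbol.

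**Figure D4:**
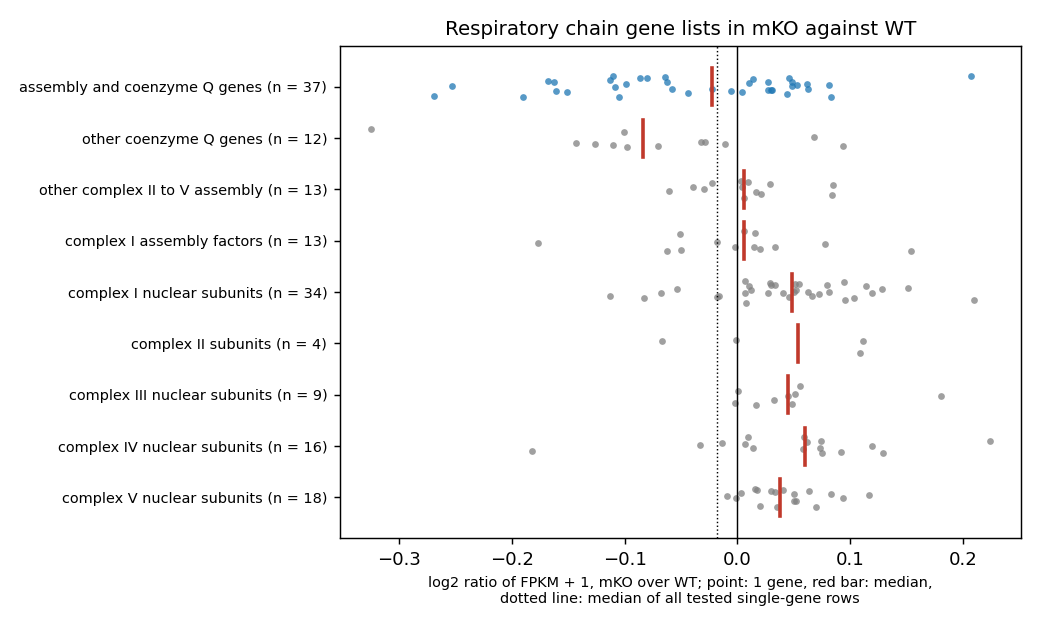
Log2 ratio of FPKM + 1, mKO over WT, for each gene of the assembly and coenzyme Q set (blue) and of 8 related lists (grey), with the median of each list as a red bar and the median of all tested single-gene rows, -0.02, as a dotted line. The bars of the 5 subunit lists lie between 0.04 and 0.06, that of the 37 genes at -0.02 and that of the other coenzyme Q genes at -0.08.

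Fundc1, the targeted gene, had 20.1 FPKM in WT and 4.23 in mKO, a log2 ratio of -2.25 ± 0.23. Fibre genes marked the tissue as labelled: 6 of 12 muscle fibre markers were tested, at 384 to 6219 FPKM, and 5 more were marked HIDATA by the authors and had no usable value. Of these 6, Myh2, a fast myosin heavy chain, fell from 487 FPKM in WT to 384 in mKO, a log2 ratio of -0.34 ± 0.18 with q = 0.00338 in the authors' deposited table, and the other 5 did not pass. Markers of other cells moved between the groups, and their part in the values above was not tested. FPKM was lower in mKO for all 12 macrophage markers, and 8 fell (summed level 319 FPKM in WT and 251 in mKO), and of 8 fibroblast markers 5 fell (293 and 253). All 6 slow and oxidative fibre markers were lower in mKO without passing q (2615 and 2428). Of 5 neutrophil markers 4 rose (196 and 269). Of 6 measured adipocyte markers only Retn rose, from 32.3 FPKM in WT to 48.4 in mKO, and Ucp1 was not among those tested. The summed level of the 6 (820 and 932) was mostly Fabp4, at 733 FPKM in WT and 828 in mKO, which did not pass q. FPKM was higher in mKO for 5 of the 6 and lower for Lep. By the normal reading of the statistic with adjustment, Postn of the fibroblast list still passed, and no other of the fibre and cell markers did. None of 6 endothelial markers (70.4 and 75.0) or 5 Schwann cell markers (59.0 and 54.8) passed q. No tested marker of these lists was at 0 in either group. In whole muscle, fewer cells of a type and less RNA per cell cannot be told apart.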

How the data were processed

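Gastrocnemius RNA of WT and Fundc1-MKO mice was sequenced, with 2 libraries in each group. Build mm10, TopHat2 2.0.14, Cufflinks 2.2.1, FastQC 0.11.3 and bcl2fastq are listed, without roles, in the submitters' processing notes. Annotation, settings and read totals were not found in these sources, so depth is unknown. Per the file headers, the authors deposited 1 FPKM per gene and group, interval bounds, a test score (the test statistic), and a p-value and q-value. Values per library were not analysed here, so no linear model could be fitted and the authors' q-value, adjusted over all tested rows, was used.

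Log2 ratios were computed from FPKM. List medians use a pseudocount of 1, which understates changes of weak genes. The distance between a bound and the FPKM was read as 2 SD. Dividing the log2 ratio by the SE obtained this way gave the deposited statistic within 1% in 99.9% of 14100 rows. This SE is the error the authors' software gave, not a spread between animals. Reading the statistic against a normal distribution was tested on simulated data with known changes. The simulated noise was itself normal, with the SD read from the intervals. That test therefore cannot show whether the deposited statistic follows a normal distribution. The 25 rows named by a date were not used as single genes. Deposited starts were raised by 1 so that coordinates count from 1. The members and gene lists were chosen with earlier results of these data known. Every member was named. Intervals, log2 ratios and q-values were printed for members with a q or p below 0.05, the 4 largest differences in each direction on log2(FPKM + 1) and the highest of each role group. The log2 ratios of Coq10b, Cox15 and Coa3 were chosen after their values were seen, as were the promoters shown. Alternatives were other call rules, pseudocounts, minimum FPKM values and scalings, and rows with several symbols. Python 3.11.15, numpy 2.4.6, pandas 2.3.3, scipy 1.17.1 and matplotlib 3.10.9 were used.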

Additional observations from a re-analysis of the deposited data

How the results depend on the processing

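No paired analysis was possible because the table gives 1 value per group, and for the same reason no replicate could be left out. The count of called members, 0 under the authors' q of 0.05, was also 0 at a q of 0.1. It was 0 too by the normal reading of the statistic, by intervals that lie apart, and with the 3 rows of several symbols added. A minimum mean of 1 or 5 FPKM only removes genes, so it could not raise a count of 0. The count was 3 at an unadjusted p under 0.05. The median log2 ratio of FPKM + 1 over the 37 genes, -0.023, turned to 0.00040 when both groups were scaled to equal medians and became -0.00015 at equal totals. Sco1 turned to 0.00040 at equal medians, and Ttc19, at -0.0058, turned to 0.024 at equal medians and 0.023 at equal totals. No other member changed sign under these scalings. A pseudocount of 0.1 or none cannot change the sign of a member's log2 ratio, so those settings say nothing about the signs. The number of members at higher FPKM in mKO was 17 to 19 under the scalings, minimum levels and row choices tried. Depth is unknown, so no limit from counts can be given. The log2 ratio of 34 of the 37 genes was smaller than its SE, which does not show that these genes are unchanged.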
